A study of Mus musculus with 6 samples.

Results

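Inguinal white adipose tissue (iWAT), the subcutaneous fat depot of the mouse hindlimb region, was profiled by RNA-Seq in 3 *Hlx* transgenic (TG) mice and 3 wild-type (WT) littermates, all 12 weeks old. The TG mice carried an *Hlx* cDNA behind the *aP2* (*Fabp4*) promoter, which is active in adipocytes, on a hybrid C57BL/6 and SJL background that had been backcrossed to C57BL/6. The number of founder lines is not given in the sources used here. The genes described here are 10 marker genes of adipocyte progenitors, namely *Pdgfra*, *Pdgfrb*, *Dlk1*, *Ly6a*, *Cd34*, *Dpp4*, *Pi16*, *Zfp423*, *Cd24a* and *Icam1*. They were found by their symbols among the 19445 gene loci of the deposited table, and each symbol was on 1 locus. Levels are FPKM, in which fragment counts are divided by transcript length and by library size, so that levels of different genes can be compared per length.

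White fat holds adipocytes together with fibroblast-like stromal cells, some of which are adipocyte progenitors. Platelet-derived growth factor receptor α, encoded by *Pdgfra*, marks most of these stromal cells, and they also carry Sca-1, the product of *Ly6a*, and the sialomucin CD34. In subcutaneous fat, cells with Dpp4 and Pi16 lie in the connective tissue sheath around the depot and are held to give rise to Icam1-positive preadipocytes, which lie closer to blood vessels and differentiate more readily. *Zfp423* encodes a zinc-finger factor of preadipocyte commitment, and *Dlk1* encodes Pref-1, a surface protein that restrains adipogenesis. None of these genes is private to progenitors. Endothelial cells use *Cd34*, *Ly6a* and *Icam1*, mural cells use *Pdgfrb*, and leukocytes and epithelium use *Cd24a*, *Dpp4* or *Icam1*.

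The transgene was visible in each library. *Hlx* was at 109.7, 79.6 and 99.5 FPKM in the TG mice and at 6.88, 7.35 and 8.14 FPKM in the WT mice. The adipocyte genes *Adipoq*, *Plin1* and *Lep* were above 0 in all 6 mice. FPKM summed to between 466059 and 542096 per mouse, the number of reads is unknown, and steps between low values gave relative depths from 0.692 to 1.41 with WT replicate 3 as 1. TG replicates 1 and 3 were the shallowest, at 0.714 and 0.692. The labels give male mice, whereas *Xist* lay between 20.2 and 33.6 FPKM in all 6 mice and 0 of 28 Y-linked loci had a value above 0. These values go against the label, and the sex of the mice is not resolved. TG replicate 2 stood apart by its skeletal muscle RNA. The FPKM of 8 muscle genes summed to 630 in that mouse, to 85.9 and 121 in the other TG mice and to between 8.25 and 129 in the WT mice. Values without this mouse are therefore given where they change a call or a direction.

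No progenitor marker passed the test between the genotypes. Of the 10 markers, 9 passed the expression filter (a mean over 1 FPKM in at least 1 genotype), and 0 were higher and 0 lower in TG than in WT iWAT at an adjusted p under 0.05 (limma on log2(FPKM + 1), n = 3 mice per genotype). Among all 11692 tested loci, 18.6% passed in either direction, 11.6% as higher and 7.03% as lower. At an unadjusted p under 0.05, 3 markers were lower (*Icam1*, *Dpp4* and *Cd24a*) and 0 were higher, against 16.8% of all tested loci that were lower at that threshold. The share of loci that were higher at that threshold was not read. The log2 fold change was negative for 8 of the 9 markers, with a median of -0.15, against a median of -0.01 over all tested loci, 51.6% of which were negative. Every TG mouse lay below every WT mouse for *Dpp4* and *Icam1*, which is 2 of 9, and 20.1% of all tested loci showed the same. Every TG mouse lay above every WT mouse for 0 markers and for 22.8% of all tested loci. In whole tissue, fewer cells of a type and less RNA per cell cannot be told apart.

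**Figure D1:**
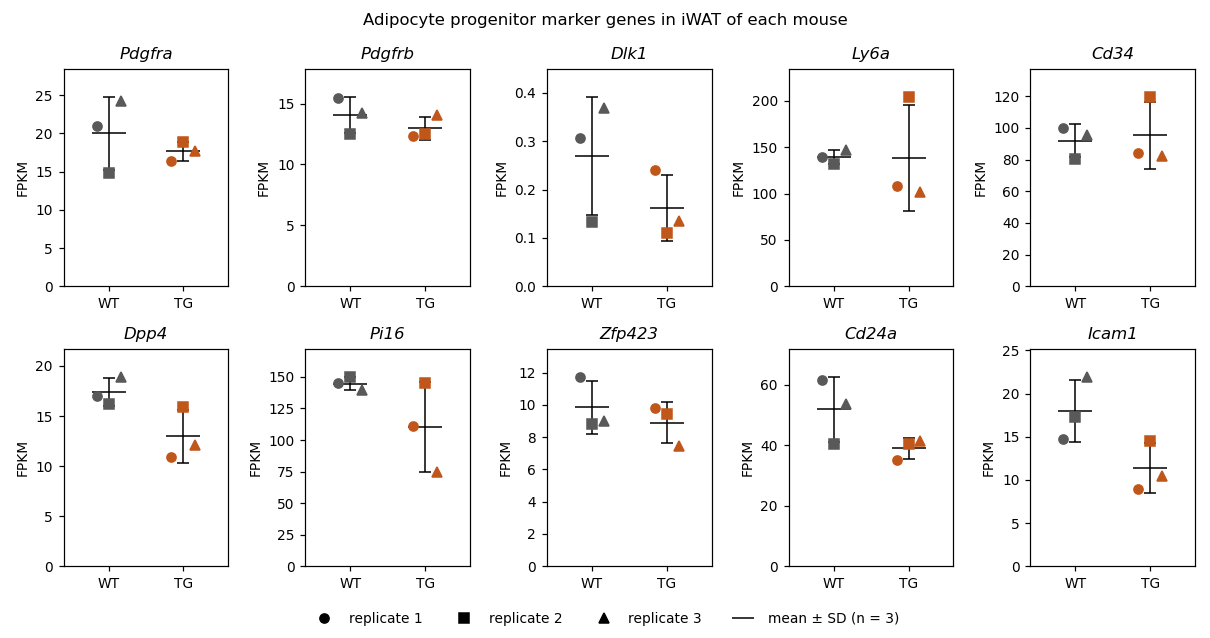
FPKM of the 10 progenitor markers in each mouse, WT on the left and TG on the right of each panel, with symbols for the replicate number and bars for the mean ± SD of 3 mice. The groups overlap for each gene except *Dpp4* and *Icam1*, and TG replicate 2 is the highest TG mouse for *Pdgfra*, *Ly6a*, *Cd34*, *Dpp4*, *Pi16* and *Icam1*.

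The count of lower markers changed with the mice included. Without TG replicate 2, 4 markers (*Ly6a*, *Dpp4*, *Pi16* and *Icam1*) were lower in TG at an adjusted p under 0.05 (limma), and all 9 log2 fold changes were negative, with a median of -0.40. In that fit 11.1% of 11689 tested loci were higher and 7.75% were lower. TG replicate 2 was the highest TG mouse for 6 of the 9 tested markers, against 31.2% of all tested loci. It is also the mouse with the most muscle RNA, and the part of that RNA in these values was not tested. Leaving out WT replicate 2 gave 1 lower marker, *Cd24a*, against 3.63% of the loci tested in that fit, and leaving out any of the other mice gave 0. With all mice kept and weighted by sample quality, 1 marker, *Icam1*, was lower, against 10.1% of all tested loci.

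**Figure D2:**
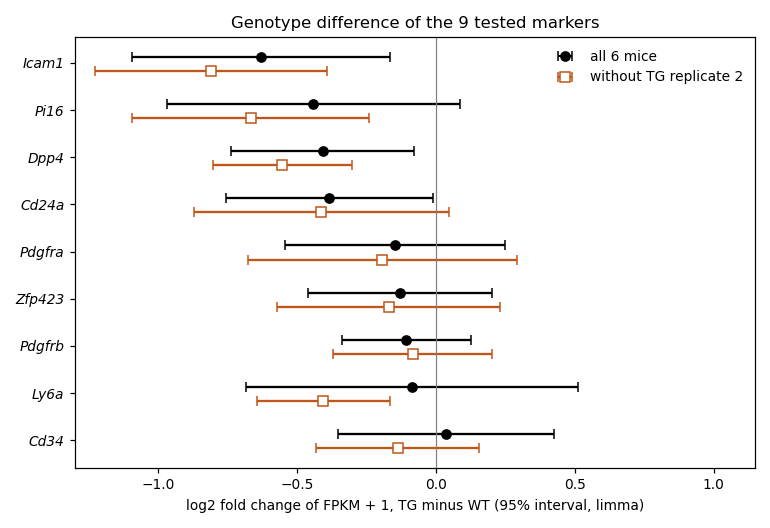
Log2 fold change of FPKM + 1, TG minus WT, with its 95% interval from limma, for the 9 tested markers, with all 6 mice (filled circles) and without TG replicate 2 (open squares). With 6 mice *Icam1* has the lowest value, -0.63, and *Cd34* the highest, 0.04. Without TG replicate 2 the intervals of *Ly6a* and *Pi16* no longer span 0, whereas that of *Cd24a* comes to span it.

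The markers covered a wide range of levels. *Ly6a*, *Pi16* and *Cd34* were the most abundant, with means over the 6 mice of 139, 127 and 93.6 FPKM, and *Cd24a* followed at 45.4 FPKM. *Pdgfra*, *Dpp4*, *Icam1* and *Pdgfrb* lay close together at 18.8, 15.2, 14.7 and 13.5 FPKM, and *Zfp423* was at 9.37 FPKM. *Dlk1* was at 0.216 FPKM. In the WT mice the ranges of *Ly6a* and *Pi16* overlapped, and that of *Pdgfra* overlapped those of *Dpp4*, *Icam1* and *Pdgfrb*. Within a mouse, *Pdgfra* was above *Pdgfrb* in each of the 6 mice. The order of *Ly6a* and *Pi16*, and of *Pdgfra* against *Dpp4* and *Icam1*, changed between mice and is not resolved.

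*Pdgfra* and *Pdgfrb* encode the tyrosine kinase receptors for platelet-derived growth factors, the former on fibroblasts and progenitors and the latter also on pericytes. *Pdgfra*, on the plus strand of chromosome 5 (75152290 to 75198204, mm10), was at 16.4, 18.8 and 17.7 FPKM in the TG mice and at 21.0, 14.8 and 24.2 FPKM in the WT mice. The TG values lay inside the range of the WT values. Its log2 fold change was -0.15 (95% interval -0.54 to 0.25, limma adjusted p = 0.56), which spans ratios from 0.686 to 1.19. *Pdgfrb*, on chromosome 18, was at 12.3, 12.5 and 14.03 FPKM in TG and at 15.5, 12.5 and 14.2 FPKM in WT iWAT. These groups overlapped too, and the log2 fold change was -0.11 (95% interval -0.34 to 0.13, adjusted p = 0.469). It had the narrowest interval of the 9 tested markers. The ratio of both receptors within a mouse, as the difference of log2(FPKM + 1), was 0.42 ± 0.12 in TG and 0.46 ± 0.25 in WT mice (SD, n = 3; exact permutation test, two-sided p = 0.8).

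Of the 4 ligand genes of these receptors, 3 passed the test. Of 6 genes of PDGF ligands, their processing and a coreceptor, 2 were higher and 1 was lower (limma adjusted p under 0.05), against 11.6% and 7.03% of all tested loci. *Pdgfd*, whose product signals mainly through the β receptor, was at 16.4, 10.7 and 13.4 FPKM in the TG mice and at 3.36, 5.21 and 4.32 FPKM in the WT mice. It rose by 1.45 on the log2 scale (standard error 0.18, adjusted p = 0.00292), at the more abundant of the 2 loci that carry its symbol. *Pdgfb* rose from 5.85 ± 0.245 to 8.85 ± 0.896 FPKM (SD, n = 3 each), with a log2 fold change of 0.52 (limma adjusted p = 0.0109). *Pdgfc*, whose product signals through the α receptor, fell from 7.80 ± 0.572 to 4.23 ± 0.496 FPKM (SD, n = 3 each), with a log2 fold change of -0.75 (limma adjusted p = 0.00401). The TG and WT mice did not overlap for these 3 genes, and each kept its call with any mouse left out. *Pdgfa* did not pass the test, with log2 fold change 0.33 and adjusted p = 0.309, and neither did *Plat*, the protease that activates the product of *Pdgfc* (-0.31, adjusted p = 0.203), nor the coreceptor gene *Nrp1* (0.52, adjusted p = 0.0623).

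**Figure D3:**
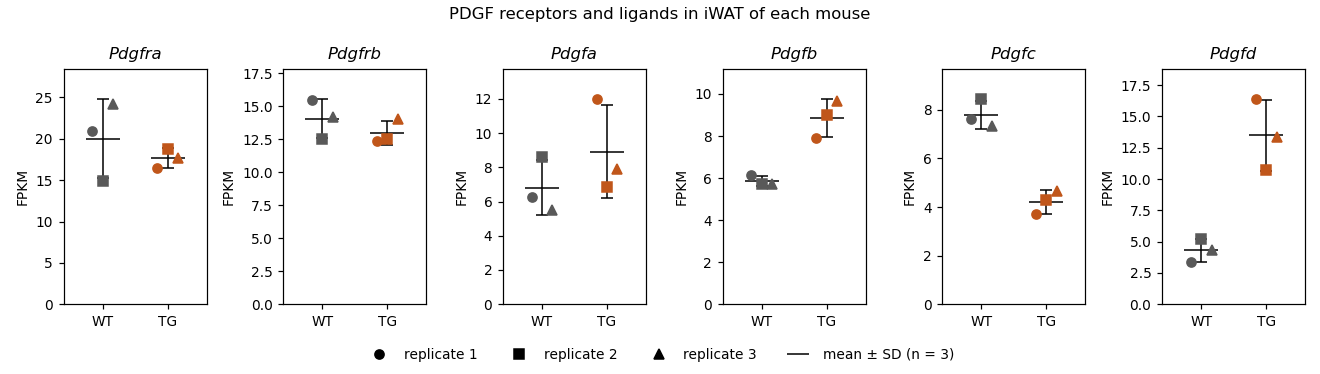
FPKM of both PDGF receptors and of the 4 PDGF ligands in each mouse, WT on the left and TG on the right of each panel, with the mean ± SD of 3 mice. The receptors overlap between the genotypes, while *Pdgfb* and *Pdgfd* are higher and *Pdgfc* is lower in each TG mouse than in each WT mouse.

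*Zfp423*, on the minus strand of chromosome 8 (87661808 to 87959595), encodes the zinc-finger factor that commits stromal cells to the preadipocyte fate and that also holds white adipocytes back from a thermogenic program. It was at 9.82, 9.43 and 7.46 FPKM in the TG mice and at 11.7, 8.80 and 9.001 FPKM in the WT mice. The groups overlapped, with TG replicate 3 below each WT mouse and WT replicate 1 above each TG mouse. Its log2 fold change was -0.13 (95% interval -0.46 to 0.20, limma adjusted p = 0.542). Its relative *Zfp521*, which opposes it, was at 2.15 ± 0.304 FPKM in TG and at 3.25 ± 0.463 FPKM in WT iWAT (SD, n = 3 each), with log2 fold change -0.43 and limma adjusted p = 0.0548, or -0.51 and adjusted p = 0.0475 without TG replicate 2. *Ebf1*, a partner in adipogenesis, had a log2 fold change of -0.29 (limma adjusted p = 0.149).

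*Dlk1*, on the plus strand of chromosome 12 (109452822 to 109463336), was near the floor of detection. Its FPKM was 0.240, 0.110 and 0.135 in the TG mice and 0.306, 0.134 and 0.370 in the WT mice. It did not pass the expression filter and was tested only without the filter, where its log2 fold change on the log2(FPKM + 1) scale was -0.13 (standard error 0.08, limma adjusted p = 0.355). The groups overlapped, and on this scale a difference between values so far below 1 FPKM is compressed. *Dlk2*, its relative, was at or under 0.15 FPKM in all 6 mice and was not tested.

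*Ly6a* encodes Sca-1, a lipid-anchored surface protein used to sort stromal progenitors, and lies on the minus strand of chromosome 15 (74992643 to 74997888). It was at 108, 204 and 102 FPKM in the TG mice and at 139, 132 and 147 FPKM in the WT mice. TG replicates 1 and 3 were below each WT mouse and TG replicate 2 was above each. Over the 6 mice the log2 fold change was -0.09 (95% interval -0.69 to 0.51, limma adjusted p = 0.828), with the widest interval among the markers, and without TG replicate 2 it was -0.40 (limma adjusted p = 0.0397). *Ly6a* belongs to a cluster of similar genes, and how reads shared by these were counted is not given in the sources used here. TG replicate 2 was also the highest TG mouse for both Ly6c relatives. *Ly6c2* was at 18.5, 62.3 and 21.1 FPKM and *Ly6c1*, which endothelial cells use, at 171, 231 and 151 FPKM in TG replicates 1, 2 and 3, with log2 fold changes of -0.04 and 0.03 (limma adjusted p = 0.955 and 0.929). Without TG replicate 2 these were -0.58 for *Ly6c2* (limma adjusted p = 0.041) and -0.15 for *Ly6c1* (adjusted p = 0.515).

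*Cd34*, on the plus strand of chromosome 1 (194938763 to 194976959), was at 84.2, 119 and 82.1 FPKM in the TG mice and at 100.035, 80.4 and 95.3 FPKM in the WT mice. TG replicate 2 was again the highest, and the other TG mice lay inside the WT range. Between the genotypes the log2 fold change was 0.04 (95% interval -0.35 to 0.42, limma adjusted p = 0.893), and it was -0.07 with quantile normalization, -0.14 without TG replicate 2 (adjusted p = 0.447) and -0.06 without WT replicate 2 (adjusted p = 0.862). The locus in the table runs 15680 bases past the annotated end of *Cd34* and takes in an antisense gene, *Gm16897*. *Podxl*, which encodes a sialomucin related to CD34, rose from 9.75 ± 1.55 to 19.7 ± 4.99 FPKM (SD, n = 3 each), with log2 fold change 0.93 and limma adjusted p = 0.0175, and it missed the threshold without WT replicate 1 or 2 (adjusted p = 0.0503 and 0.0552).

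*Cd24a* encodes a small sialoglycoprotein that marks an early progenitor subset of white fat and also epithelium and B cells, on the plus strand of chromosome 10 (43579168 to 43584265). It was at 35.04, 40.5 and 41.5 FPKM in the TG mice and at 61.5, 40.3 and 53.7 FPKM in the WT mice. The groups overlapped only through WT replicate 2. The log2 fold change was -0.38 (95% interval -0.76 to -0.01, limma adjusted p = 0.13), and without WT replicate 2 it was -0.55 (adjusted p = 0.0386). Epithelium and leukocytes, which also use the gene, were read from their own lists. Of 9 epithelial genes tested, 0 passed in either direction, against 18.6% of all tested loci. Their median log2 fold change was -0.35. The keratin gene *Krt18*, the most abundant of them, had a log2 fold change of -0.67 (limma adjusted p = 0.0792). Their FPKM summed to 102, 128 and 201 in the TG mice and to 237, 197 and 149 in the WT mice. The TG mice had the same order in this sum and in *Cd24a*, whereas among the WT mice replicate 3 had the lowest sum and replicate 2 the lowest *Cd24a*. The epithelial markers *Epcam* and *Krt8* were above 0 in all 6 mice. Their part in the *Cd24a* values was not tested.

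*Dpp4* encodes a membrane peptidase and *Pi16* a peptidase-inhibitor-like protein of the CAP family, and both define the interstitial progenitors of subcutaneous fat. *Dpp4*, on the minus strand of chromosome 2 (62329503 to 62412668), was at 10.9, 15.9 and 12.1 FPKM in the TG mice and at 16.98, 16.2 and 18.9 FPKM in the WT mice. Each TG mouse was below each WT mouse, TG replicate 2 narrowly so. The log2 fold change was -0.41 (95% interval -0.74 to -0.08), with an unadjusted p of 0.0222 and an adjusted p of 0.0834 (limma). The exact permutation test gave p = 0.1, the smallest that 3 mice against 3 allow. Without TG replicate 2 the log2 fold change was -0.55 (limma adjusted p = 0.0196). *Pi16*, on the plus strand of chromosome 17 (29318829 to 29330200), was at 111, 146 and 74.3 FPKM in the TG mice and at 145, 149.8 and 139 FPKM in the WT mice. The WT mice were close to each other, whereas the TG mice spread over a range in which TG replicate 2 was at the WT level. Its log2 fold change was -0.44 (95% interval -0.97 to 0.09, limma adjusted p = 0.2), or -0.67 (adjusted p = 0.0481) without TG replicate 2.

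*Icam1*, on the plus strand of chromosome 9 (21015959 to 21028796), encodes an adhesion molecule of preadipocytes, endothelium and leukocytes. It was at 8.96, 14.6 and 10.5 FPKM in the TG mice and at 14.8, 17.2 and 21.9 FPKM in the WT mice. The highest TG mouse, replicate 2, was just below the lowest WT mouse. For *Icam1* the log2 fold change was -0.63 (95% interval -1.09 to -0.17), the lowest of the 9 tested markers, with an unadjusted p of 0.0149 and an adjusted p of 0.0661 (limma). The exact permutation test gave p = 0.1. Without TG replicate 2 the log2 fold change was -0.81 (limma adjusted p = 0.028), and with sample quality weights it was -0.61 (adjusted p = 0.0406). *Icam2*, an endothelial relative, had a log2 fold change of -0.13 (limma adjusted p = 0.562). The *Icam1* to *Dpp4* ratio within a mouse, as the difference of log2(FPKM + 1), was -0.19 ± 0.07 in TG and 0.03 ± 0.20 in WT mice (SD, n = 3), and the groups overlapped (exact permutation test, two-sided p = 0.2).

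The promoters of *Dpp4* and *Icam1*, the markers without overlap between the genotypes, are shown beside that of *Pdgfra*, whose TG values lay inside the WT range. Hlx is a homeodomain factor, and such factors commonly bind sites with the core TAAT. Each sequence is the 250 bases before the RefSeq transcription start (GRCm38.p6, the assembly of mm10), written 5′ to 3′ on the gene's strand, with TAAT or its reverse complement ATTA in capitals. The window of *Dpp4* is chr2:62412232-62412481 (minus strand), that of *Icam1* is chr9:21015690-21015939 (plus strand) and that of *Pdgfra* is chr5:75152001-75152250 (plus strand).
Dpp4: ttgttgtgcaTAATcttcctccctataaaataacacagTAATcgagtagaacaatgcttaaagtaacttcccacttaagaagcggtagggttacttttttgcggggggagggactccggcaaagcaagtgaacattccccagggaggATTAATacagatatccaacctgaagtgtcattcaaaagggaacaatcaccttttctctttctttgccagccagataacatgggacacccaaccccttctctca
Icam1: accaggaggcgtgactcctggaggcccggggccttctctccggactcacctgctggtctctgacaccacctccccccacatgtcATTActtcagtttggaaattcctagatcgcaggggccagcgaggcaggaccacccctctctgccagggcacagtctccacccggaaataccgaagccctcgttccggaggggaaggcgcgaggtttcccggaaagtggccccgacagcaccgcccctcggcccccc
Pdgfra: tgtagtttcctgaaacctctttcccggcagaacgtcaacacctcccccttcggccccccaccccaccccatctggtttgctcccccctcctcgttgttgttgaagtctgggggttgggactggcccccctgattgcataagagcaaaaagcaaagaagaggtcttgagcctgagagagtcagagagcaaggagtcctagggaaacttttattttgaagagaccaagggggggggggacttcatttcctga
The core was present 4 times in the *Dpp4* window, where a pair of matches overlaps, 1 time in the *Icam1* window and 0 times in the *Pdgfra* window. The *Dpp4* window lies inside the locus of the table, whose limits run past this start. Windows were used for 7 of the 10 markers, without *Pdgfrb*, *Ly6a* and *Cd24a*. The core was in 3 of their 8 windows (*Zfp423* has 2), those of *Dpp4*, *Icam1* and *Pi16*, and it is in 54.9% of all 32851 windows of this length. A match of these letters describes the sequence and is not evidence of binding. The study searched for Hlx sites with a matrix of the bases that Hlx prefers. Some of the sites it lists hold neither TAAT nor ATTA, so a window without the core can still hold a site for Hlx.

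Other genes of the same stromal cells were read from the same fit. Of 10 further genes of interstitial progenitors, 9 had a row of their own. Of these, 0 were higher and 0 lower (limma adjusted p under 0.05), against 11.6% and 7.03% of all tested loci. Their median log2 fold change was -0.05. *Anxa3*, the most abundant of them, was at 33.2, 53.9 and 36.1 FPKM in the TG mice and at 52.1, 46.9 and 48.3 FPKM in the WT mice. As for *Ly6a*, *Dpp4* and *Icam1*, replicate 2 was the highest TG mouse, here above each WT mouse. Without TG replicate 2, *Anxa3* and *Cd55* were lower (log2 fold changes -0.49 and -0.58, limma adjusted p = 0.0207 and 0.0262). *Ackr3*, a chemokine scavenger receptor gene named here after its values were seen, pointed the other way, with 36.4, 53.7 and 38.8 FPKM in the TG mice and 29.1, 21.5 and 31.2 FPKM in the WT mice (log2 fold change 0.63, limma adjusted p = 0.0568).

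**Figure D4:**
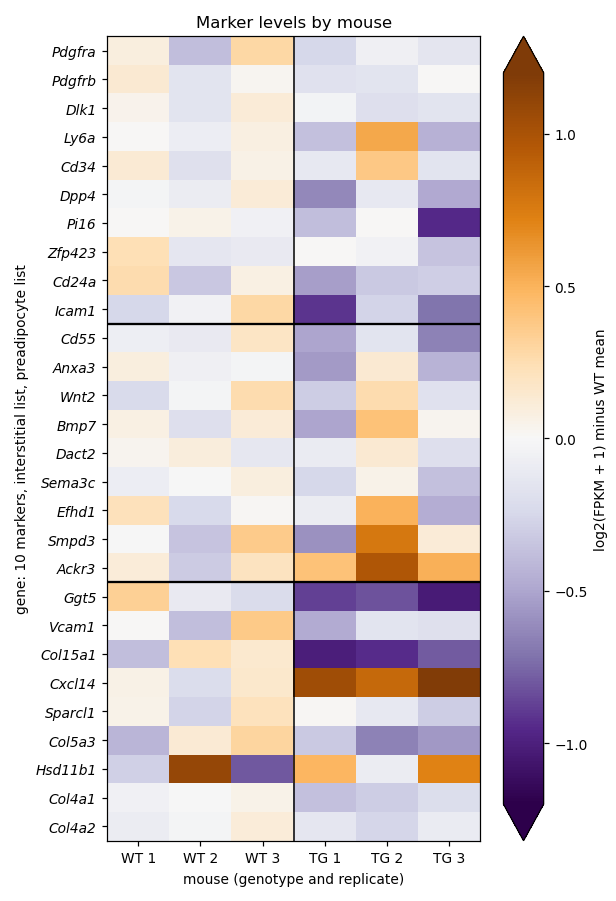
Log2(FPKM + 1) of each gene in each mouse minus the mean of the WT mice, for the 10 markers (top), 9 interstitial progenitor genes (middle) and 9 preadipocyte genes (bottom), with orange above and purple below the WT mean. For *Ly6a*, *Cd34* and *Anxa3*, TG replicate 2 is above and TG replicates 1 and 3 are below the WT mean, whereas the 3 TG mice lie on the same side of it for *Ggt5*, *Col15a1* and *Cxcl14*.

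Of 9 tested genes of Icam1-positive preadipocytes, 2 were lower and 1 was higher (limma adjusted p under 0.05). Among all tested loci, 7.03% were lower and 11.6% higher. The median log2 fold change of the 9 genes was -0.27. *Col15a1*, a basement membrane collagen gene, fell from 102 ± 22.4 to 52.9 ± 4.10 FPKM (SD, n = 3 each), with log2 fold change -0.92 and adjusted p = 0.0122. *Ggt5*, a glutamyl transferase gene, fell from 10.3 ± 2.40 to 4.92 ± 0.434 FPKM (log2 fold change -0.91, limma adjusted p = 0.00903). *Cxcl14*, a chemokine gene, rose from 21.9 ± 2.94 to 45.6 ± 5.22 FPKM (log2 fold change 1.03, limma adjusted p = 0.00292). TG and WT mice did not overlap for these 3 genes, and each kept its call with any mouse left out. The values are of whole tissue, in which the thermogenic gene *Ucp1* rose from 36.9 ± 20.2 to 591 ± 47.2 FPKM (SD, n = 3 each). Whether preadipocytes or other cells, such as adipocytes, carried the RNA of these 3 genes was not tested.

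Among 8 genes of the F3-positive stromal cells that restrain adipogenesis, 1 was higher and 0 were lower (limma adjusted p under 0.05). Over all tested loci the shares were 11.6% and 7.03%. The median log2 fold change of the 8 genes was -0.05. *F3*, which encodes tissue factor and defines these cells, was at 74.2, 37.2 and 58.6 FPKM in the TG mice and at 19.5, 22.7 and 17.1 FPKM in the WT mice. It rose by 1.43 on the log2 scale (standard error 0.24, adjusted p = 0.00908, limma). Which cells of the tissue carried the *F3* RNA was not tested. The other 7 genes of the list did not pass, with log2 fold changes between -0.52 and 0.34.

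Fibroblast genes were set beside the markers, since progenitors are part of that stroma. Of 10 pan-fibroblast genes, 0 were higher and 1 was lower (limma adjusted p under 0.05), against 11.6% and 7.03% of all tested loci. Their median log2 fold change was -0.14, close to the -0.15 of the markers. The gene that passed was *Dpt*, which encodes the matrix protein dermatopontin and fell from 518 ± 59.7 to 202 ± 41.2 FPKM (SD, n = 3 each; log2 fold change -1.37, adjusted p = 0.00275). The mean log2 level of the 10 genes was 6.67, 7.31 and 7.09 in the TG mice and 7.47, 7.08 and 7.33 in the WT mice, and the groups overlapped. Their summed FPKM was between 1592 and 2297 in TG and between 2304 and 2885 in WT mice, and this separation rested on *Dpt*. Without it, a choice made after seeing the data, the sums were 1408, 2048 and 1859.6 in TG and 2427, 1727 and 2059 in WT mice, which overlapped. Measured against the mean log2 level of these 10 genes in the same mouse, *Icam1* was lower in TG by 0.36 and *Dpp4* by 0.14 on the log2 scale, and the groups overlapped for both (exact permutation test, two-sided p = 0.3 each). *Cd34* was the only one of the 10 markers without overlap on this scale. It was 0.30 higher in TG mice, from -0.71 to -0.26 against -0.81 to -0.73 in WT mice (exact permutation test, p = 0.1). The gap between the groups was narrow, and the reference of 10 genes includes *Dpt*, with its log2 fold change of -1.37. Whether this separation rests on *Dpt* was not tested, and the share of all loci without overlap on this scale was not read.

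The vessels share *Cd34*, *Ly6a*, *Icam1* and *Pdgfrb* with the progenitors. Of 10 endothelial genes, 2 were higher and 1 was lower (limma adjusted p under 0.05), against 11.6% and 7.03% of all tested loci. Their median log2 fold change was 0.10. *Emcn* and *Kdr* rose (0.50 and 0.35, adjusted p = 0.0222 and 0.0329), but *Emcn* missed the threshold without TG replicate 3, WT replicate 2 or WT replicate 3 (adjusted p from 0.0672 to 0.0751) and *Kdr* without any mouse except WT replicate 3 (0.0652 to 0.101). *Cldn5*, a tight junction gene, fell (-0.76, limma adjusted p = 0.00772). *Pecam1* and *Cdh5*, which define endothelium, did not pass (-0.09 and 0.29, limma adjusted p = 0.632 and 0.0987). The summed FPKM of the endothelial list was between 355 and 429 in TG and between 340 and 401 in WT mice, and between 186 and 204 in each mouse without *Ly6c1*. Of 9 mural genes, 1 was higher and 0 were lower, against the same 11.6% and 7.03% of all tested loci. The higher gene was *Kcnj8* (0.51, limma adjusted p = 0.0184, or 0.0535, 0.0549 and 0.0614 without TG replicate 1, WT replicate 1 or WT replicate 2). *Rgs5* and *Cspg4*, which define pericytes, had log2 fold changes of 0.16 and 0.22 (limma adjusted p = 0.485 and 0.271). The part of vessel RNA in the marker values was not tested.

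Leukocytes share *Icam1*, *Cd24a* and *Dpp4*. Of 9 leukocyte genes tested, 4 were lower and 0 higher (limma adjusted p under 0.05), against 7.03% of all tested loci lower, and the median log2 fold change was -0.63. The 4 were the macrophage genes *Cd68* and *Adgre1* (-0.86 and -0.41) and the B cell genes *Ms4a1* and *Cd22* (-0.76 and -0.75), while *Ptprc*, which defines leukocytes, did not pass (-0.46, adjusted p = 0.147). The count was 1 without TG replicate 1, TG replicate 3 or WT replicate 2, 2 without WT replicate 3 and 3 without TG replicate 2. Among all tested loci, 470, 329 and 424 were lower without TG replicate 1, TG replicate 3 and WT replicate 2. Without WT replicate 3 these were 400, without TG replicate 2 they were 906, and with all 6 mice 822. *Cd68* alone of the 4 genes kept its call with any mouse left out. The FPKM of the 9 genes summed to 181, 253 and 222 in the TG mice and to 279, 321 and 368 in the WT mice. The 6 mice had the same order in this sum and in *Icam1*. The order of *Dpp4* differed by an exchange of WT replicates 1 and 2, and *Cd24a* did not follow it, since WT replicate 1 had the lowest WT sum and the highest *Cd24a*. *Csf1r*, a relative of the PDGF receptors that macrophages use, and *Siglecg*, a B cell partner of CD24, fell (-0.75 and -0.74, limma adjusted p = 0.0185 and 0.0459). *Csf1r* missed the threshold without TG replicate 1, TG replicate 3 or WT replicate 3 (adjusted p from 0.0559 to 0.0678), and *Siglecg* without any mouse except WT replicate 1 (0.0793 to 0.122). The part of leukocyte RNA in the values of *Icam1*, *Dpp4* and *Cd24a* was not tested.

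**Figure D5:**
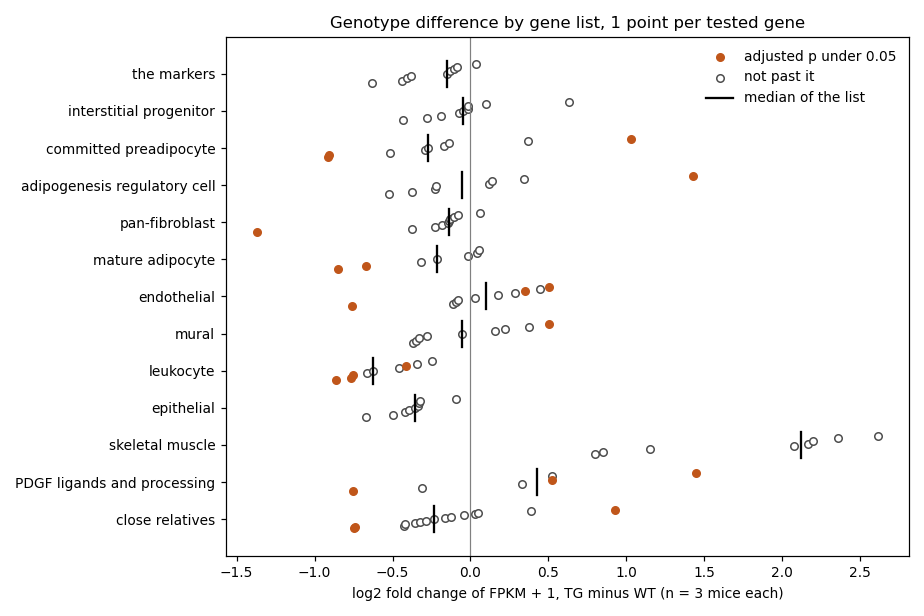
Log2 fold change of FPKM + 1, TG minus WT, for each tested gene of the progenitor markers and of 12 other gene lists, filled where the adjusted p was under 0.05 (limma, n = 3 mice per genotype), with a line at the median of each list. The 9 tested markers lie between -0.63 and 0.04 with no filled point, the leukocyte list has a median of -0.63 with 4 filled points, and the skeletal muscle list has a median of 2.12 with no filled point.

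Adipocytes, the cells the progenitors give rise to, gave a further frame. Of 7 genes tested, 2 were lower and 0 higher (limma adjusted p under 0.05), against 7.03% and 11.6% of all tested loci. Their median log2 fold change was -0.21. *Adipoq* (-0.85) missed the threshold without TG replicate 3 or WT replicate 2 (adjusted p = 0.0688 and 0.056), and *Lpl* (-0.67) without TG replicate 1, TG replicate 3, WT replicate 1 or WT replicate 2 (adjusted p from 0.0548 to 0.0805). Of 15 tested relatives and partners of the markers, 1 was higher and 2 were lower, all named above, with a median of -0.23. Among all tested loci, 11.6% were higher and 7.03% lower. Without TG replicate 2 there were 2 higher and 5 lower relatives, against 11.1% and 7.75% of the loci tested in that fit. Of 8 skeletal muscle genes, 0 passed in either direction, against 18.6% of all tested loci. *Acta1* was at 20.6, 187 and 39.5 FPKM in the TG mice and at 2.36, 35.5 and 8.94 FPKM in the WT mice.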

How the data were processed

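RNA-Seq libraries (TruSeq v2, not strand-marked) of iWAT from 3 TG and 3 WT mice were read as single-end reads. Per the submitters' processing notes, the authors used CASAVA 1.8.2, TopHat2 2.0.9, Bowtie2 2.1.0 and Cufflinks 2.2.1 with mm10, and deposited FPKM per locus and mouse. Options and annotation are not given in the sources used here. Without strand, reads of 5 markers (*Pdgfra*, *Cd34*, *Dpp4*, *Pi16*, *Icam1*) cannot be told apart from those of antisense genes.

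From these FPKM, log2(FPKM + 1) was fitted with limma 3.58.1 in R 4.3.3 (two-sided, with a mean-variance trend and no covariate, over the 11692 loci with a mean over 1 FPKM in at least 1 genotype, and p-values adjusted by Benjamini-Hochberg over these loci), after a test on simulated data. A symbol on several loci was read from the locus with the highest mean, *Ackr3* and *Adgre1* were found under older symbols, and symbols that share a row with another gene were left out. Single values were tested by exact permutation over 20 arrangements. Limma p-values set the genotype difference against a variance between the 3 mice of each genotype that borrows from all tested loci. Strand, gene limits and antisense genes came from GENCODE M21, figures from matplotlib 3.10.9. Markers and lists were chosen with earlier results of these data known. All markers are named, and from each other list up to 4 called genes with the largest change, or else the most abundant gene; further genes were named after their values were seen.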

Additional observations from a re-analysis of the deposited data

How the results depend on the processing

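Depth, 3 mice a genotype and whole tissue set the limits of these comparisons. The number of reads is unknown, and *Dlk1* lay below the filter. Another pseudocount (0.1), no filter, a filter on the mean of 6 mice, quantile normalization, median-ratio scaling, no trend, sample quality weights, a replicate block, a stricter threshold, summed loci and each mouse left out were tried. *Pdgfra*, *Pdgfrb* and *Zfp423* kept their direction and passed the test under none of the alternatives. Neither scaling moved the median log2 fold change of all tested loci by 0.1 or more. The cause of the changes below was not tested.

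The log2 fold change of *Cd34* was -0.071 with quantile normalization. With sample quality weights *Icam1* passed at -0.61 (limma adjusted p = 0.0406), so that 1 marker was lower. The counts became 1 higher interstitial progenitor gene, 2 higher and 1 lower adipogenesis regulatory genes, 1 lower epithelial gene and 2 higher relatives. In that fit 1611 of all tested loci were higher and 1185 lower, against 1352 and 822 without the weights. Quantile normalization gave 2 higher adipogenesis regulatory genes and 2 lower fibroblast genes, with 1300 higher and 1083 lower among all tested loci. The fit without trend gave 2 higher adipogenesis regulatory genes, with 1304 higher and 807 lower among all tested loci. Without the filter, 0 adipocyte genes, 2 leukocyte genes and 1 relative were lower, while 1151 of all loci were higher and 638 lower. At an adjusted p under 0.01, 569 loci were higher and 199 lower, with 1 preadipocyte gene, 0 adipocyte genes, 1 leukocyte gene and 0 relatives lower and 0 endothelial genes, 0 mural genes, 1 PDGF gene and 0 relatives higher. With a pseudocount of 0.1, *Dlk1* relative to fibroblast genes was -0.20 in place of 0.14.

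With each mouse left out in turn, 780 to 1295 loci were higher and 329 to 906 lower, and 0 to 4 markers were lower. Log2 fold changes ran from -0.40 to 0.091 for *Ly6a*, -0.14 to 0.13 for *Cd34*, -0.55 to -0.30 for *Dpp4*, -0.67 to -0.19 for *Pi16*, -0.55 to -0.25 for *Cd24a* and -0.81 to -0.48 for *Icam1*. The *Pdgfra* to *Pdgfrb* ratio differed by -0.16 to 0.094. Relative to fibroblast genes, *Pdgfra* ran from -0.0057 to 0.25, *Dlk1* from -0.080 to 0.32, *Zfp423* from -0.10 to 0.28 and *Pi16* from -0.38 to 0.11. Lower genes numbered 0 to 2 interstitial progenitor, 0 to 1 adipogenesis regulatory, 0 to 2 adipocyte, 1 to 4 leukocyte, 0 to 1 epithelial and 0 to 5 relatives, and higher genes 0 to 1 endothelial, 0 to 2 mural and 0 to 2 relatives.

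The deviations of same-numbered TG and WT mice from the genotype means correlated at 0.0129, 0.0344 and 0.0701 across loci. Each TG mouse correlated more with another WT number than with its own. The summed muscle genes had the same order by number in both genotypes. For replicates 1, 2 and 3 they were at 85.9, 630 and 121 FPKM in TG and at 8.25, 129 and 35.1 FPKM in WT mice. Whether same-numbered mice shared a litter or a dissection was not tested, and these correlations cannot tell. With the replicate number as a block, 1230 loci were higher and 656 lower, 0 markers passed in either direction, and the counts became 1 higher endothelial gene, 0 higher mural genes, 5 higher skeletal muscle genes, 2 higher relatives and 0 lower relatives.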
